A study of Oryctolagus cuniculus with 6 samples.

Results

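GCNT1 and GCNT4 encode core 2 glucosaminyltransferases, Golgi enzymes that start a branch on sugar chains of glycoproteins. They are 2 of the 9978 genes named on the array, taken by gene name or description, and have 4 of its 43603 probes, 1 for GCNT1 and 3 for GCNT4. Both genes were chosen because they had moved in opposite directions between ligated and sham arteries in these same data, so that difference is described here and not tested. Messenger RNA was measured with 6 one-colour rabbit arrays in smooth muscle cells of female New Zealand White rabbits, released by elastase and collagenase from the basilar artery. In the ligated group both common carotid arteries were tied to increase flow, and in the sham group they were only exposed. All arteries were taken on day 5. The labels give n = 3 per group, without the age of the animals and without saying whether an array holds 1 rabbit or a pool, so every n and SD below counts arrays.

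Mucin-type O-glycans begin when a GALNT enzyme attaches GalNAc to serine or threonine. Addition of galactose makes core 1, and a core 2 enzyme then adds a GlcNAc branch to the GalNAc. The branch can be lengthened, sialylated and fucosylated, and in leukocytes such branched chains carry ligands of selectins and galectins. GCNT1 is the core 2 enzyme best known from leukocytes, where its loss in mice impairs selectin binding, and GCNT4 is a related core 2 enzyme described first in human thymus.

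The 4 probe sequences are shown because every value of these 2 genes rests on them. Capitals mark the bases that are identical between the GCNT1 probe and A_04_P040398 of GCNT4 in their best alignment without gaps.
A_04_P046927 (GCNT1): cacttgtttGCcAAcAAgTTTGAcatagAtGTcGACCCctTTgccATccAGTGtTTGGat
A_04_P040399 (GCNT4): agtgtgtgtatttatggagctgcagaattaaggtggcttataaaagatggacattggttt
A_04_P040398 (GCNT4): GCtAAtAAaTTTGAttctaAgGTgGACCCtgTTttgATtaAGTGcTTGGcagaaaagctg
A_04_P040397 (GCNT4): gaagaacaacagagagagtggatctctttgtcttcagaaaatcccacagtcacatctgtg
The GCNT1 probe lies on chromosome 1 from 62873056 to 62873115 on the plus strand of oryCun2, the build named in the array files. The files list the GCNT4 probes as unmapped, and no exon or UTR annotation of that build was used here. Within the GCNT4 transcript the probes start at positions 1098, 1158 and 1287, so they do not overlap, and A_04_P040398 begins directly after A_04_P040399 ends. The GCNT1 probe starts at position 1185 of its own transcript. Over 51 aligned bases it shared 31 with A_04_P040398. Of 43599 probes outside both genes, 5 shared as many or more with it over at least 40 aligned bases, and the median was 20 identical bases. The longest exact run that any of the 4 probes shared with a probe of another gene, on either strand, was 15 bases. G and C made up 45.0% of the GCNT1 probe and 36.7% to 43.3% of the GCNT4 probes.

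Signals below are log2 values relative to the 75th percentile of their own array, which is 0. A probe counted as detected on an array when the scanner software marked it well above background, and it was tested when detected on at least 3 arrays. That kept 27410 probes, and between 58.7% and 63.7% of probes were detected per array. Slide 1 held the sham arrays and slide 2 the ligated ones, so for every value below a slide effect and the operation cannot be told apart. Among 10 spike-in controls the median ligated minus sham difference was -0.81, and 3 of them had all ligated values under all sham values. The sham 3 array was scanned on scan day 2 and the others on scan day 1. Sham 2 and sham 3 were the most alike, with an SD of 0.30 for their differences over 23435 probes, against 0.55 to 1.07 for the other pairs. Values with both averaged into 1 sample are therefore given beside the differences of both genes and the calls of named genes around core 2 branching. They are not given for the calls of cell type markers.

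GCNT1 was well expressed in sham arteries and much lower in ligated arteries. Its normalised log2 signal in sham arteries was 0.65, 0.26 and 0.38. After ligation it was -2.28, -3.05 and -1.43. The groups did not overlap, and the closest sham and ligated arrays were 1.70 apart. The probe was well above background on all 6 arrays, with processed intensities from 249 to 348 in sham and from 30.2 to 58.1 in ligated arteries. The mean signal was 0.43 ± 0.20 (SD, n = 3) without ligation and -2.26 ± 0.81 (SD, n = 3) with it, which is 6.45-fold lower. The log2 difference was -2.69 ± 0.41 (SE of the fit), and it was -2.74 with sham 2 and sham 3 averaged. The spread was wider in the ligated group, where ligated 2 read lowest and ligated 3 highest. Without ligated 2 the difference was -2.29, and without ligated 3 it was -3.10. In sham arteries 78.8% of all probes had a lower mean signal than GCNT1, and in ligated arteries 53.0% did. GCNT1 stands on a single probe spotted once per array, so no second probe bears on its level.

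GCNT4 was detected only in ligated arteries, and only on A_04_P040399. That probe read -4.91, -5.05 and -5.13 in sham arteries, where it was not well above background. In ligated arteries, where it was well above background on all 3, it read -2.81, -2.51 and -2.52. The groups were 2.10 apart at their closest arrays, and the values within each group lay near each other. The measured means were -5.03 ± 0.11 for sham and -2.61 ± 0.17 for ligation (SD, n = 3), with a difference of 2.42 ± 0.19 (SE of the fit), or 2.39 with sham 2 and sham 3 averaged. Since the probe was not detected in sham arteries, each sham array was set to its lowest signal marked well above background. The probe's own signal was used where higher. On that reading GCNT4 was 3.10-fold higher in ligated arteries, and the value ran from 2.76-fold without sham 3 to 3.33-fold without sham 1. It is not a strict lower limit, since some probes with a higher signal than the lowest detected one were not detected. With the normexp corrections described below, each with an offset, the log2 difference was smaller, at 0.80 and 0.68. Processed intensities were low in both groups, 6.26 to 7.35 in sham and 25.8 to 44.2 in ligated arteries. Of all 43603 probes, 360 (0.826%) were detected on every ligated and no sham array as this probe was, and 105 showed the opposite pattern.

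The other 2 GCNT4 probes were not well above background on any array. A_04_P040397 read -5.91, -5.14 and -6.45 in sham and -3.73, -5.06 and -3.70 in ligated arteries. A_04_P040398 read -6.08, -6.00 and -6.64 in sham and -4.89, -5.87 and -5.83 in ligated arteries. On both, every ligated array lay above every sham array, by 0.08 and 0.13 at the closest. They give no fold, because neither group was well above background. Among all 12541 probes detected on no array, 11.6% had every ligated array above every sham array and 0.765% had the reverse, and their median difference was 0.22. The median local background was 31.0 to 32.0 on the sham arrays and 36.0 on each ligated array. The part of this background difference in the GCNT4 values was not tested.

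**Figure D1:**
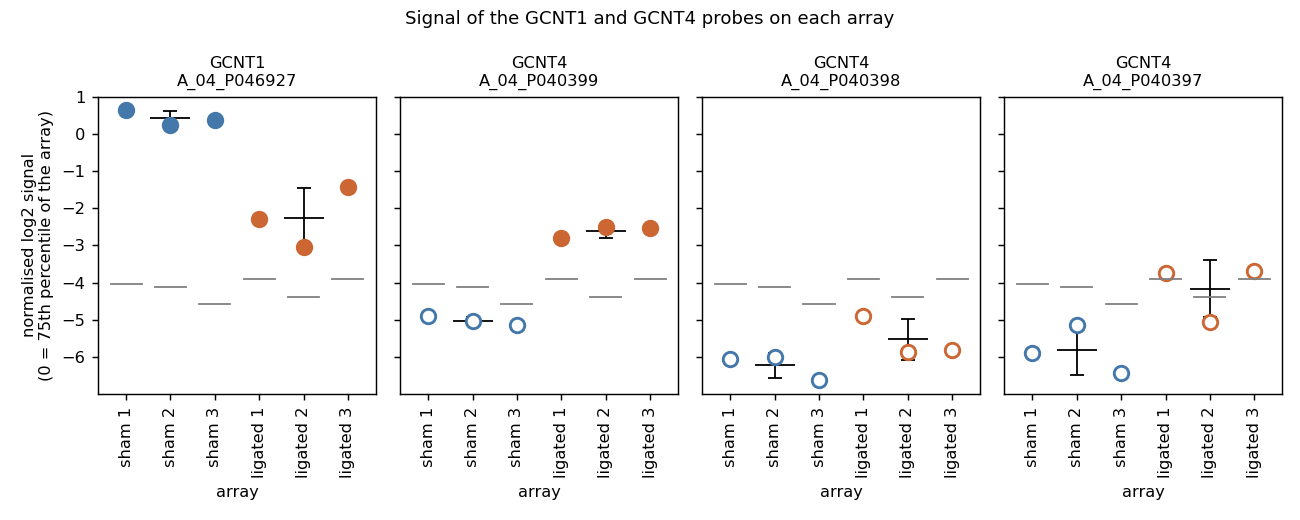
Normalised log2 signal (vertical axis, 0 is the 75th percentile of the array) of the GCNT1 probe and the 3 GCNT4 probes on the 3 sham (blue) and 3 ligated (orange) arrays. Filled points were well above background, open points were not, black bars are the group mean ± SD, and grey dashes are the lowest signal marked well above background on that array. GCNT1 is filled throughout and lower on every ligated array, while GCNT4 is filled only on the ligated arrays of A_04_P040399.

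Both tested probes of the 2 genes passed the fit across all 27410 probes (limma, adjusted p under 0.05), as 8.35% of tested probes did (5.71% higher and 2.65% lower), and nothing is read from this because the genes were chosen from this contrast. Of the tested probes, 17.1% had every ligated array below every sham array, as GCNT1 did, and 17.6% had the reverse, as A_04_P040399 did. A difference lower than that of GCNT1 was found for 381 tested probes (1.39%). The sign of both differences was the same under every alternative that gave a value, but the size was not. With a normexp background correction, which also adds an offset of 50 to every intensity and so pulls dim log2 differences towards 0, the difference was -0.69 for GCNT1 and 0.80 for GCNT4. The parts of the correction and of the offset in this move were not separated. With the same correction and offset computed without probes of very high local background, it was -1.49 for GCNT1 and 0.68 for GCNT4.

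**Figure D2:**
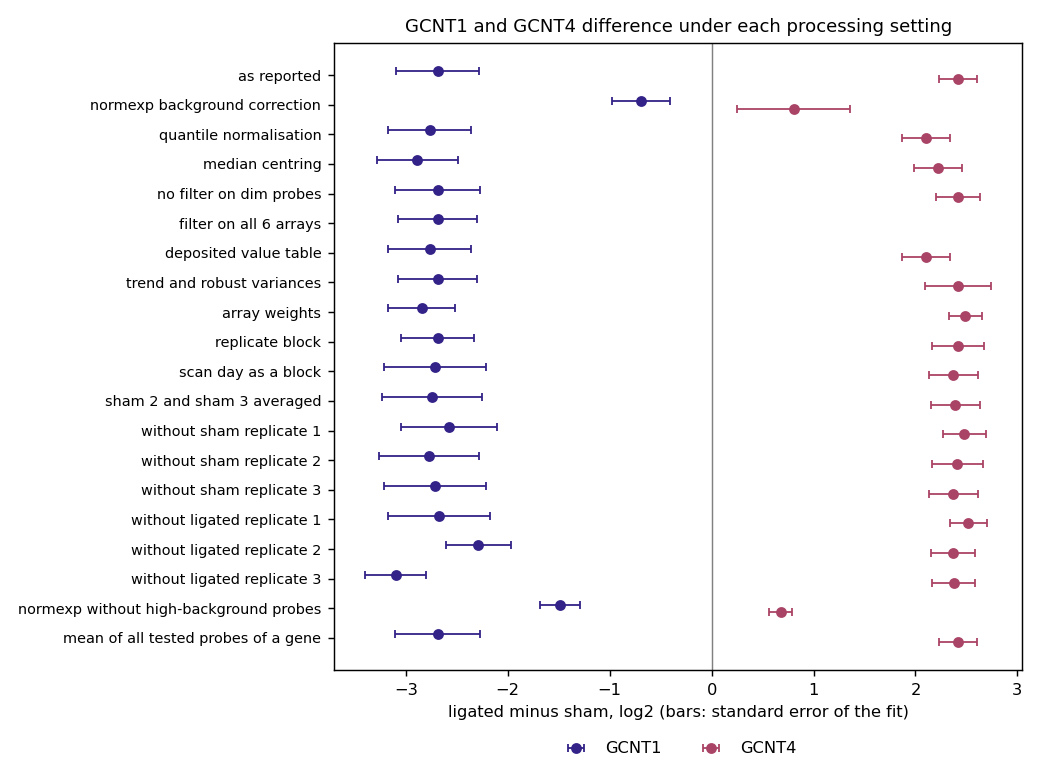
Ligated minus sham log2 difference (horizontal axis, bars are the SE of the fit) of GCNT1 and of the GCNT4 probe A_04_P040399 under each processing setting (vertical axis). GCNT1 stays left of 0 and GCNT4 right of 0 in every row that holds it, and both are nearer 0 with either normexp correction, each with an offset of 50. The filter on all 6 arrays leaves GCNT4 out.

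Other GCNT family genes gave 1 tested probe. GCNT2, which makes the branch of the I blood group antigen, was detected on all 6 arrays, at -2.11 ± 0.38 (SD, n = 3) for sham and -1.96 ± 0.46 for ligation. Its log2 difference was 0.15 ± 0.31 (SE, adjusted p = 0.779), with groups that overlapped. The single GCNT7 probe was not well above background on any array. No probe was assigned to GCNT3, the mucin-type core 2 enzyme of epithelia, or to GCNT6.

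The enzymes, transporters and ligands around core 2 branching were followed in a list of 89 genes sorted by role, chosen with earlier results of these data known and without GCNT1 and GCNT4. Of these, 58 had a probe and 43 were tested, each on its brightest tested probe. Of the 43, 6 rose, 0 fell and 37 did not pass, while 8.91% of all 7535 named genes passed (6.21% higher and 2.69% lower). The median log2 difference was 0.37 over the list and 0.01 over all named genes. Limma called 0 of the 43 without sham 2, without sham 3, without ligated 2 or with sham 2 and sham 3 averaged, with 8 to 9 at an unadjusted p under 0.05, against 10 with all arrays. It also called 0 with the normexp correction, with 1 at an unadjusted p under 0.05, and 2 without ligated 1. With normexp without high-background probes it called 6, with 10 at an unadjusted p under 0.05. The count was 6 without ligated 3, 4 without sham 1, and 6 of 36 with the filter on all 6 arrays.

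**Figure D3:**
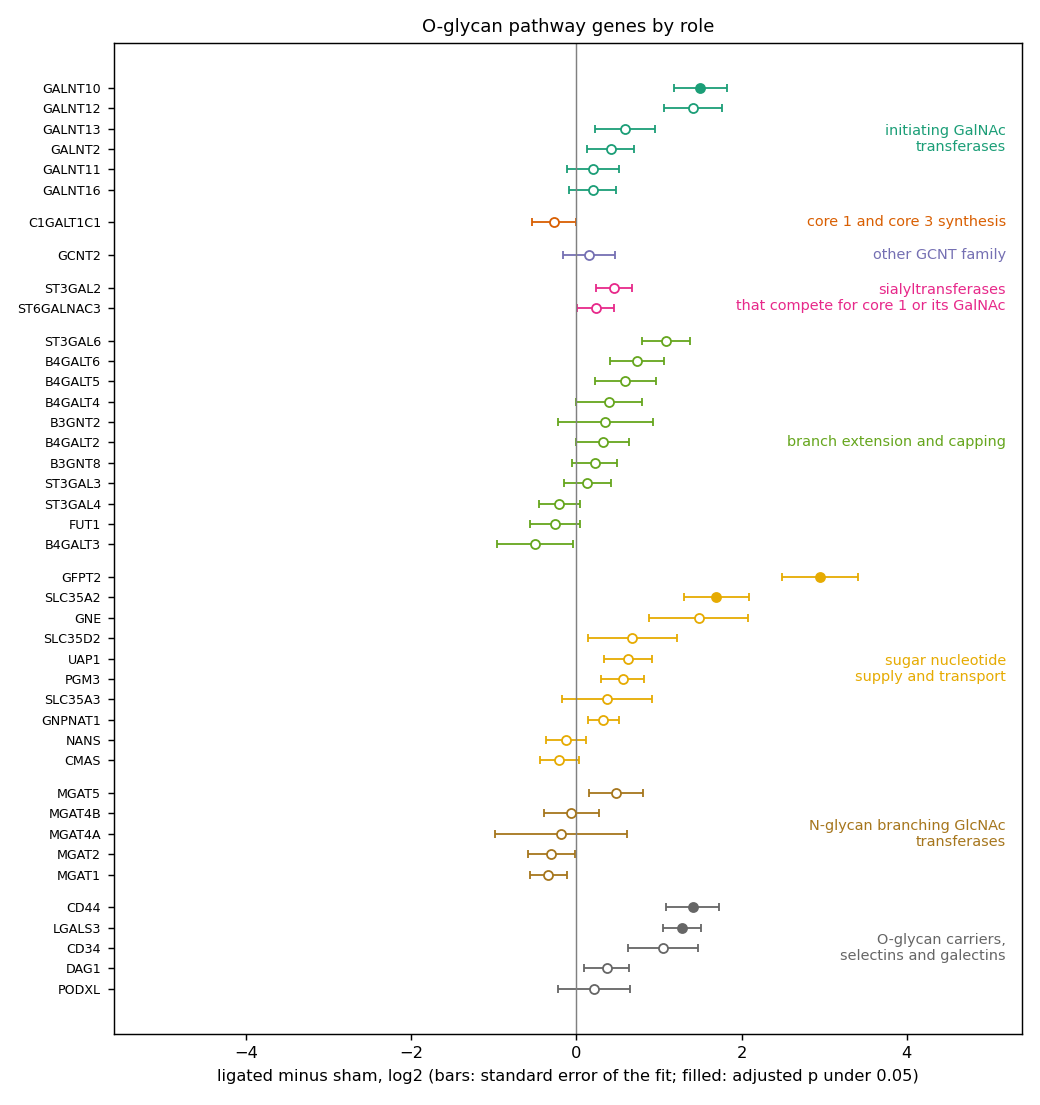
Ligated minus sham log2 difference (horizontal axis, bars are the SE of the fit) of 41 tested O-glycan pathway genes, grouped by role (colour), with GCNT1 and GCNT4 left out. Filled points passed an adjusted p of 0.05: GALNT10, GFPT2, SLC35A2, CD44 and LGALS3, all to the right of 0.

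Supply of sugar nucleotides held 3 of the 6. GFPT2, an enzyme of the first and rate-limiting step towards UDP-GlcNAc, the donor that both core 2 enzymes use, rose 7.71-fold. It went from -3.82 ± 0.61 to -0.88 ± 0.74 (SD, n = 3, adjusted p = 0.0161), and it was detected on 2 of 3 sham arrays, so the size is uncertain. With normexp the log2 difference of 2.95 became 0.98, or 1.30 without high-background probes, and with sham 2 and sham 3 averaged the adjusted p was 0.0670. SLC35A2, the Golgi transporter of UDP-galactose, rose by 1.69 ± 0.39 in log2 (SE, adjusted p = 0.0482). Its difference was 0.80 or 1.07 with these corrections, and its adjusted p was 0.148 with the averaged sham arrays. Of the role's 11 tested genes, 8 did not pass. Among them PGM3, which acts between GFPT2 and UDP-GlcNAc, had a difference of 0.56 (adjusted p = 0.225), and CMAS, which activates sialic acid, had -0.20 (adjusted p = 0.608).

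Among the initiating enzymes, GALNT10 rose 2.83-fold, from -2.78 ± 0.47 to -1.28 ± 0.40 (SD, n = 3, adjusted p = 0.0395). Of its 5 tested probes 4 passed, and the 5 differences ran from 1.40 to 1.56. Its difference on the brightest probe was 0.70 with normexp and 0.77 without high-background probes, and its adjusted p was 0.100 with sham 2 and sham 3 averaged. The other 5 tested GALNT genes did not pass. The brightest 2 had differences of 0.41 for GALNT2 (adjusted p = 0.383) and 0.20 for GALNT11 (adjusted p = 0.704). C1GALT1C1, the chaperone that the core 1 galactosyltransferase needs, was the only tested gene of core 1 synthesis. It had a difference of -0.27 ± 0.27 (SE, adjusted p = 0.537), and 0 of its 3 tested probes passed.

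Enzymes that compete with core 2 branching, or act after it, gave 0 passing genes of 13 tested in limma, with 1 at an unadjusted p under 0.05. That gene, ST3GAL6, had a difference of 1.09 ± 0.29 (SE, adjusted p = 0.0691), and its 3 tested probes ran from 1.09 to 1.22. ST3GAL2, which sialylates the galactose of core 1, had a difference of 0.46 ± 0.22 (SE, adjusted p = 0.228), and ST6GALNAC3, a sialyltransferase of the GalNAc, had 0.23 ± 0.22 (adjusted p = 0.526). ST3GAL4, a sialyltransferase that caps lactosamine chains, was bright, at 4.07 ± 0.40 for sham and 3.87 ± 0.09 for ligation (SD, n = 3, adjusted p = 0.613). Of its 6 probes 5 had the same sign, and the 6 differences ran from -0.21 to 0.57. FUT1, a fucosyltransferase of the H antigen, had a difference of -0.26 (adjusted p = 0.609). The branching enzymes of N-glycans, which also transfer GlcNAc, did not pass in any of 5 tested genes, and 0 of the 5 reached an unadjusted p of 0.05. MGAT1, which starts complex N-glycans, had a difference of -0.34 (adjusted p = 0.368), and MGAT2, which acts after it, had -0.30 (adjusted p = 0.516).

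Of carriers and lectins, 2 of 6 tested genes rose. LGALS3, galectin-3, a lectin that binds lactosamine chains, rose 2.42-fold, from 3.10 ± 0.30 to 4.38 ± 0.19 (SD, n = 3, adjusted p = 0.0234), and all 5 of its probes passed. CD44, the hyaluronan receptor that carries O-glycans, rose 2.66-fold, from 1.37 ± 0.19 to 2.78 ± 0.59 (SD, n = 3, adjusted p = 0.0467), and 1 of its 2 tested probes passed. With sham 2 and sham 3 averaged, the adjusted p was 0.0774 for LGALS3 and 0.135 for CD44. PODXL, a sialomucin of endothelium and other cells, was the brightest at 6.05 ± 0.35 in sham and had a difference of 0.21 (adjusted p = 0.780). The selectin genes SELE and SELP had probes, but none was tested.

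The cells that carry these transcripts cannot be read from bulk RNA, in which fewer cells of a type and less RNA per cell cannot be told apart. Smooth muscle markers were abundant on every array, such as the actin ACTA2 at 8.11 ± 0.66 (SD, n = 3) for sham and 7.16 ± 0.95 for ligation. All 7 tested smooth muscle markers had a lower mean in ligated arteries, of which 2 passed (DES and SMTN), and their summed signal was 737 to 1321 times the 75th percentile in sham and 283 to 663 times in ligated arteries. GCNT1 was lower in the same arrays, and its lowest value was on ligated 2, where that sum was the highest of the ligated group. The sum over 3 erythroid markers was 189 to 389 in sham, 28.5 and 31.4 on ligated 1 and ligated 2, and 668 on ligated 3, the ligated array with the highest GCNT1 signal. The leukocyte sum, over 9 tested of 10 listed markers, was 8.29 to 23.6 in sham and reached 29.5 on ligated 3, again the highest of its group, and 0 of the 9 passed in limma. The sham group was ordered otherwise. Sham 1 had its highest GCNT1 signal (0.65) and smooth muscle sum (1321), but its lowest erythroid (189) and leukocyte (8.29) sums. The endothelial sum over 4 tested markers was 49.9 to 101 in sham and 53.9 to 140 in ligated arteries, and 0 of 4 passed. This sum rests mostly on VWF, at a mean of 5.74 in sham, against 3.04 for CLDN5, the next brightest. The 4 markers differed in sign, with log2 differences of 0.64 for PECAM1, 0.42 for VWF, 0.13 for TEK and -0.97 for CLDN5. Fibroblast and meningeal markers were higher in ligated arteries in all 5 tested genes, of which 3 passed, with sums of 94.8 to 110 in sham and 189 to 273 in ligated arteries. GCNT4 A_04_P040399 was higher in the same arrays. The neuron and glia list had 1 tested gene, SYT1, at 0.0716 to 0.197 in sham and 0.0184 to 0.0730 in ligated arteries, and the GFAP probe was detected on no array. The part of any of these cell types in the GCNT1 and GCNT4 values was not tested.

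**Figure D4:**
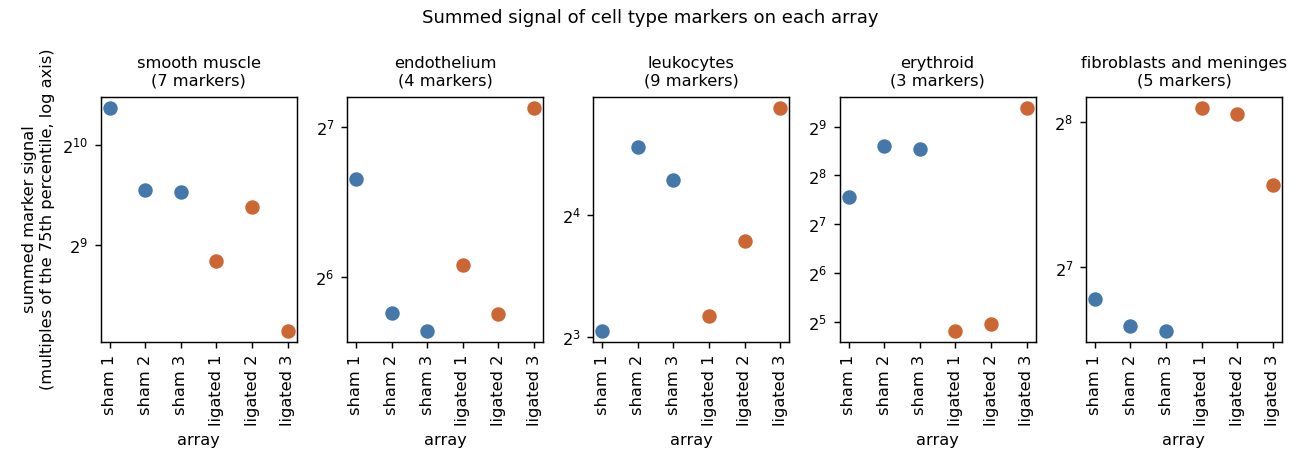
Summed linear signal of the tested markers of 5 cell types (vertical axis, multiples of the 75th percentile of the array, log axis) on the 3 sham (blue) and 3 ligated (orange) arrays. The fibroblast and meningeal sum is above 189 on each ligated array and at most 110 on each sham array, and ligated 3 holds the highest erythroid, leukocyte and endothelial sums.

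The genes most like GCNT1 and GCNT4 over the 6 arrays were taken as those with the smallest root mean square difference between profiles after each was centred on its own mean. For GCNT1, over 6624 named genes detected on all 6 arrays, these were COX7A1, a muscle subunit of cytochrome c oxidase, at 0.43 log2 units, and MT3, a metallothionein, at 0.44. AVP, the vasopressin gene, followed at 0.45, FANCF, a DNA repair gene, at 0.47, and SPHKAP, a protein kinase A anchor, at 0.50. For GCNT4, over 7007 named genes detected on all 3 ligated arrays, AURKA, a mitotic kinase, was nearest at 0.17. The proteoglycan gene LUM was at 0.20, PCOLCE2, an enhancer of procollagen processing, at 0.20, HECW2, a ubiquitin ligase, at 0.21 and the fibronectin gene FN1 at 0.22. AURKA and HECW2 were, like GCNT4, detected on no sham array, so the distances to GCNT4 rest partly on readings not well above background. Since each profile is mostly the step between the groups, likeness here largely repeats that step.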

How the data were processed

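Total RNA was labelled with Cy3 and hybridised to 6 one-colour Agilent arrays (3 sham, 3 ligated). Agilent Feature Extraction 10.7 is the scan software named by the submitters' processing notes. Its processed signal is, per the file headers, a detrended and background-subtracted intensity that was not scaled between arrays. The authors' deposited value table holds log2 values with equal array medians (5.05), and how it was normalised is not given in the sources.

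Outlier spots were dropped (2 to 19 per array), spots of a probe were averaged in log2, and the 75th percentile was subtracted. The ligated and sham groups were tested by limma 3.58.1 under R 4.3.3 (two-sided, 4 residual degrees of freedom before moderation, Benjamini-Hochberg over 27410 probes, threshold 0.05). Probes were named through a RefSeq table of assembly mOryCun1.1 by gene number, accession, gene name or, for GCNT genes, description. This gave 22422 of 43603 probes 1 symbol, 67 several and 21114 none. A gene stands on its tested probe with the highest mean.

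Both genes, the 89-gene list and the markers were chosen with earlier results of these data known. Named list genes were those that passed and the brightest 2 of each role, and 2 genes counted in the list are not reported here. Alternatives changed the background correction, scaling, filter, value source, variance model, weights and blocks, averaged probes or sham 2 and sham 3, or left out 1 array. One of them, normexp without high-background probes, was chosen after seeing the data. The number of arrays limits the precision, and each p-value sets a group difference against the spread between arrays within the groups, which holds no spread between slides.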

Additional observations from a re-analysis of the deposited data

How the results depend on the processing

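Over 27410 probes limma called 2290 (68.3% higher in ligated arteries). The count was 0 with normexp and its offset of 50 (655 at an unadjusted p under 0.05), 1524 without a filter, 6098 with array weights, 1295 with the replicate block, 552 with scan day as a block, which is the fit without sham 3 because sham 3 alone was scanned on day 2, and 595 with sham 2 and sham 3 averaged, and it ran from 552 to 2269 when 1 array was left out. With the same normexp correction and offset, computed without probes of very high local background, the count was 2944 of 27391 probes. With median centring 52.2% of calls were higher, with array weights 54.9%, and with normexp without high-background probes 55.5%. Median centring moved the median difference of all tested probes from 0.01 to -0.19 and normexp to 0.21. In the O-glycan list, where 6 genes passed, limma called 3 with quantile normalisation, median centring, no filter or the deposited value table, 12 with array weights, of which 1 was lower, and 1 with the replicate block. It called 0 with normexp (1 at an unadjusted p under 0.05), with scan day as a block (9) and with sham 2 and sham 3 averaged (8), and 0 to 6 when 1 array was left out, with 2 of the 4 calls lower without sham 1. With normexp without high-background probes it called 6 (10 at an unadjusted p under 0.05). Fits on 5 arrays gave 2269 without sham 1 and 2264 without ligated 3, but 595 without sham 2 and 552 without sham 3. The cause of these changes was not tested.

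GCNT1, at -2.69, was at -0.69 with normexp and -1.49 with normexp without high-background probes, and from -3.10 to -2.29 when 1 array was left out. GCNT4, at 2.42, was at 0.80 and 0.68 with these corrections, 2.10 with quantile normalisation, 2.10 with the deposited value table and 2.22 with median centring, and from 2.37 to 2.52 when 1 array was left out. The filter on all 6 arrays gave no GCNT4 value. Among 19 named list genes, sign changes were seen only for genes that had not passed: ST3GAL4 (0.0034 with quantile normalisation, 0.0023 with the deposited value table), GCNT2 (-0.047 with median centring), and, when 1 array was left out, GCNT2 (-0.047 without ligated 1, to 0.40), GALNT11 (-0.054 without sham 2, to 0.51) and PODXL (-0.24 without ligated 3, to 0.58). The deviations of equally numbered arrays correlated at 0.24, -0.47 and 0.37, and those of unequally numbered arrays at -0.50 to 0.49. Each deviation is from a mean of only 3 arrays, so these values cannot decide whether the numbers pair the arrays. The replicate block left 1 of the 6 list calls. Dim signal limits GCNT4, which lies below detection in sham, and 2 of its 3 probes lie below it on every array.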
